A study of Drosophila melanogaster with 2 samples.

Results

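Of 3917 reproducible peak summits of the forkhead transcription factor fd3F in Drosophila embryos, 1114 (28.4%, exact 95% interval 27.0 to 29.9%) lay 0 to 1000 bp upstream of the nearest start site of a protein-coding gene and not between a pair of divergent starts. A summit is the base of highest signal in a peak. Any annotated transcript start of a gene counted as a start site, and divergent starts counted as a pair when they lay at most 1000 bp apart. Within that list the members were chosen by position alone, but the list itself was selected by the authors for high pooled signal and agreement between the replicates. The other summits fell into 3 classes by the same rule: 765 between head-to-head starts, 385 within 1000 bp downstream of a start, and 1653 farther than 1000 bp from any protein-coding start.

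The data came from chromatin immunoprecipitation with sequencing (ChIP-seq) of whole embryos aged 8 to 18 h. All embryos were of 1 transgenic line, fd3F-GFP, which carries fd3F with green fluorescent protein at its C-terminus, and chromatin sheared to 200 to 800 bp was precipitated through that tag. There was 1 group of 2 biological replicates, numbered 1 and 3, with no untagged line, no other genotype and no treatment, so no contrast between conditions could be made. The labels do not state what drives the tagged copy or which cells express it, and whole embryos mix all tissues. A control experiment is named for the peak calls, and its data were not used here.

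Forkhead factors bind DNA through a winged-helix domain that recognises variants of the word TAAACA or its reverse complement. fd3F is known from genetics to act in chordotonal neurons, the stretch receptors of the fly, where it switches on genes of ciliary motility and mechanosensation. The promoters in front of which these summits lie are commonly sorted by short sequence elements. Broad promoters of housekeeping genes often carry the DNA replication-related element (DRE), bound by the factor DREF, and the related word CGATA, bound by the boundary factor BEAF-32. Promoters of developmental and inducible genes more often carry an initiator at the start site and GAGAG repeats, bound by GAGA factor, the product of Trithorax-like.

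The sequences that the results turn on are shown first (Release 6 genome of RefSeq, build dm6, each 5′ to 3′ on the strand of its gene). The 61 bases around the summit of the strongest member and of the strongest member at a Polycomb-group gene were AT-rich and held no forkhead core.
CG14100, chr3L:19590587-19590647, minus strand: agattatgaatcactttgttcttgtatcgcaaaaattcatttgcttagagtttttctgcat
ph-p, chrX:2137313-2137373, minus strand: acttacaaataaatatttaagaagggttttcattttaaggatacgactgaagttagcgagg
At the following 3 summits, among the strongest with a forkhead core in these 61 bases and no exon there, capitals mark TAAACA in either orientation.
larp, chr3R:28326575-28326635, minus strand: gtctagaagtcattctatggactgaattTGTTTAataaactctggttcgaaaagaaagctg
Acsf2, chr2L:5342557-5342617, minus strand: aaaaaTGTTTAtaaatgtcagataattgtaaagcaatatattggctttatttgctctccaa
bbx, chrX:21367797-21367857, plus strand: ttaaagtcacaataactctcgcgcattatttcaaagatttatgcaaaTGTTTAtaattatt
Summits less than 150 bp from the start often had DRE-type words in the 150 bases before the start, and capitals mark the DRE, TATCGATA, at a pair of the strongest examples without an exon there.
eEF1gamma, chr3R:29220022-29220171, plus strand: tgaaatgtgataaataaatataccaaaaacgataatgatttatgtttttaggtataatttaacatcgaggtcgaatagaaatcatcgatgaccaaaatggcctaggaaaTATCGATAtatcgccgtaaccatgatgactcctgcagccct
Nsun5, chr3R:19162301-19162450, minus strand: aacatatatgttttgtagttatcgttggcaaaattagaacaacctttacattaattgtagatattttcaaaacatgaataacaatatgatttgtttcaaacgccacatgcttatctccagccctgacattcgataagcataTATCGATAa
Summits at 150 bp or more often had GAGAG in the 150 bases before the start, and capitals mark it in either orientation, at a pair of genes with summits at 150 to 299 bp and a pair with summits at 300 bp or more.
msi, chr3R:25515968-25516117, plus strand: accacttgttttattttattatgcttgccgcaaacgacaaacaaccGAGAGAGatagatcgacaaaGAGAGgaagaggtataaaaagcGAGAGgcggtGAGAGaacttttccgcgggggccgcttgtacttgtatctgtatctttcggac
Fhos, chr3L:8766292-8766441, plus strand: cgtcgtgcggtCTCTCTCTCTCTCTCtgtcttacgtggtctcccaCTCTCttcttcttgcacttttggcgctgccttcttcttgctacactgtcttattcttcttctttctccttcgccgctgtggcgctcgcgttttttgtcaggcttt
Lk6, chr3R:11760080-11760229, minus strand: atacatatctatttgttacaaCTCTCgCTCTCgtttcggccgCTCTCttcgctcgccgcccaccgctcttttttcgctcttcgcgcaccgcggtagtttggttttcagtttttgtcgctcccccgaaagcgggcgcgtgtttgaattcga
larp, chr3R:28326265-28326414, minus strand: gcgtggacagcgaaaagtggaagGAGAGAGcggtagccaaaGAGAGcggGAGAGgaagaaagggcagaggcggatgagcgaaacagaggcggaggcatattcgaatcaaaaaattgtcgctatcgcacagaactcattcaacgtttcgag
The 100 bases before the starts of the ribosomal protein genes with the strongest members held no GAGAG.
RpL23A, chr3L:1668655-1668754, minus strand: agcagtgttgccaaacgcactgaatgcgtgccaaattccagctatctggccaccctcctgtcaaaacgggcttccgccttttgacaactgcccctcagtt
RpL24, chr2L:13395132-13395231, minus strand: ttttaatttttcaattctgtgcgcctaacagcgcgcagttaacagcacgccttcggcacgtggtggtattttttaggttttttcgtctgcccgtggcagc

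The summits clustered shortly before the start. Their median distance was 239 bp (quartiles 144 and 418 bp), and 584 of 1114 (52.4%) lay within 250 bp. The replicates, each read from its own 3917 highest-signal peaks, gave 1098 members with a median of 246 bp (replicate 1) and 1133 with a median of 242 bp (replicate 3). The shares within 250 bp were 51.2% and 51.9%. In 50 bp bins the fullest were 100 to 149 and 150 to 199 bp, while the first 50 bp held 54 summits (4.85%).

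**Figure D1:**
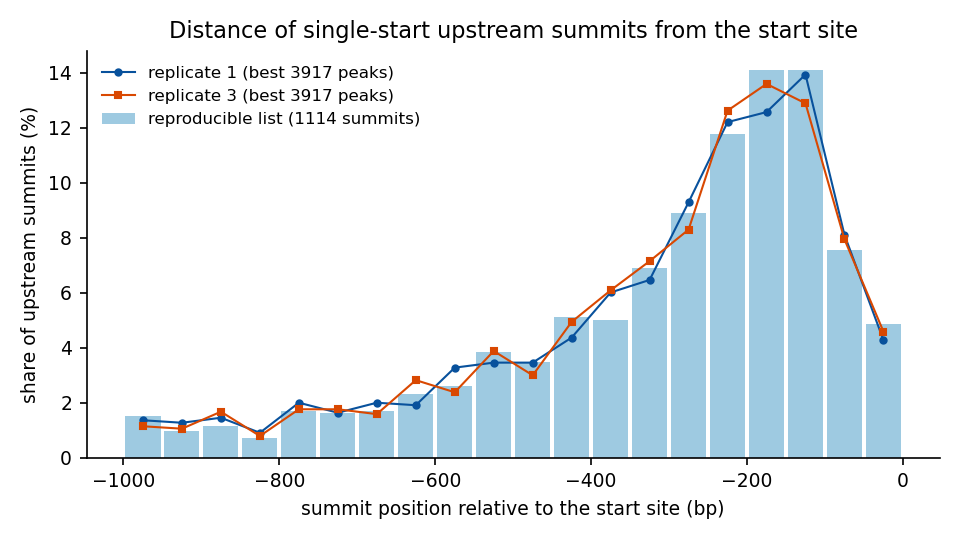
Share of upstream summits (%, vertical axis) in 50 bp bins of position relative to the start site (bp, horizontal axis; the start is at 0), as bars for the 1114 summits of the reproducible list and as lines for the 1098 and 1133 summits found by the same rule among the 3917 best peaks of replicates 1 and 3. The 3 lists gave the same shape, with a median of 239 bp in the reproducible list.

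Because the list was selected on these same replicates, the overlap and the likeness of signal between them describe the members and are no independent check. Of the 1114, 1095 overlapped a peak in both relaxed lists of 30000 peaks, and 905 (81.2%, exact 95% interval 78.8 to 83.5%) overlapped one of the 3917 best peaks of both replicates. A further 96 overlapped a best peak of replicate 1 alone, 101 of replicate 3 alone and 12 of neither. Among head-to-head summits the share in both was 83.7%, among downstream summits 74.8% and among those over 1000 bp from a start 75.1%. These classes come from the same pair of libraries, and the differences between them were not tested. The median gap between the summits of the replicates was 23 bp, and 1078 of the 1095 (98.4%) lay 0 to 1000 bp upstream of the same start in both. Across these 1095 members, which share their libraries and are not independent, log2 signal in replicates 1 and 3 had a Pearson r of 0.82 and a Spearman rho of 0.79.

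**Figure D2:**
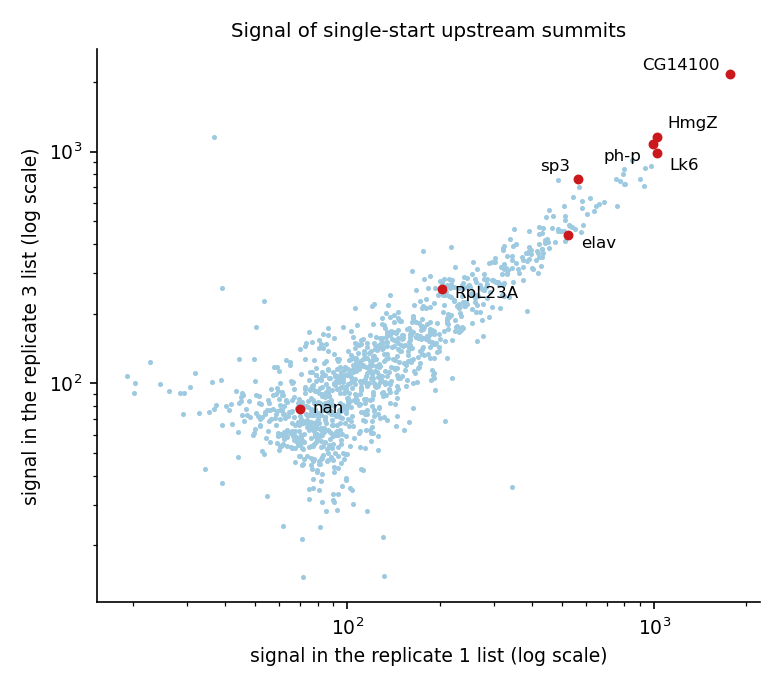
Signal of each of the 1095 upstream summits in the replicate 1 list (horizontal axis) and the replicate 3 list (vertical axis), both on log scales and in the arbitrary units of their own list, with 8 genes marked in red. CG14100 was highest in both, and nan, a chordotonal channel gene, lay among the weak summits. The pale point high on the left is a weaker summit of HmgZ (signal 157.6), whose interval overlaps a replicate 3 peak that also belongs to the gene's main summit.

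The strongest members lay at genes of many kinds. Signal is the authors' value per peak on the scale of its own list, so it ranks peaks only within that list. CG14100 (FBgn0036889, 3L, peak 19590420 to 19590827) had the highest signal of all 3917 peaks, 3903 in the pooled data, 1762 in replicate 1 and 2151 in replicate 3, with its summit 93 bp upstream. HmgZ, an HMG-box chromatin protein gene, followed with 2179 pooled, 1022 in replicate 1 and 1160 in replicate 3, at 574 bp. These signals put both genes among the 12 strongest peaks of each replicate.

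Next came ph-p, which encodes a Polyhomeotic subunit of Polycomb repressive complex PRC1 (FBgn0004861, X), with 2057 pooled, 994 in replicate 1 and 1079 in replicate 3, at 488 bp. Lk6, a kinase gene whose product phosphorylates the translation factor eIF4E (FBgn0017581, 3R), had 2011 pooled, 1018 in replicate 1 and 982 in replicate 3, at 975 bp. Fkbp14, which encodes a peptidyl-prolyl isomerase of the endoplasmic reticulum, had 1833, 976 and 862 in the same order, at 123 bp. At HmgZ, ph-p, Lk6 and Fkbp14 the start concerned was an inner start of the gene, and the summit lay in an intron of the gene's longer transcripts.

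The rest of the 20 strongest ran from 1792 at CG1635 to 1250 at Hpf1, a cofactor gene of poly-ADP-ribosylation. Among them were Atf3, a stress-responsive bZIP factor gene (1642 pooled, 796 in replicate 1, 837 in replicate 3, 209 bp), and Gapdh2, which encodes a glycolytic enzyme (1635 pooled, 926 in replicate 1, 710 in replicate 3, 164 bp). larp, an RNA-binding translation regulator gene, had 1516 pooled, 772 in replicate 1 and 749 in replicate 3, at 341 bp. eIF6, a factor of 60S ribosome assembly, had 1516 pooled, 748 in replicate 1 and 765 in replicate 3, at 117 bp, and Alg3, a mannosyltransferase of N-glycan assembly, had 1270, 570 and 705 in the same order, at 88 bp. Both eIF6 and Alg3 held a DRE in the 150 bp before the start. CG18549, CG1888, CG31145, gish, px, RluA-1, sp3 and Tina-1 completed the 20, at distances of 134 to 581 bp.

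Median signal was 214.8 over the members, 229.4 between head-to-head starts, 197.3 downstream of starts and 178.3 farther away. Of the 391 strongest peaks 149 were members, or 13.4% of the members, against 13.7% of the head-to-head, 8.57% of the downstream and 6.29% of the distant summits. The order of the 4 medians was the same in replicate 1 (111.0, 117.6, 99.1 and 95.2) and in replicate 3 (104.4, 115.8, 99.4 and 87.8). At the outer edge of the rule the 28 members at 900 to 1000 bp had a median signal of 254.3, and the 25 summits at 1001 to 1100 bp, just outside, had 188.2. The last inside were at CG11964 (998 bp, signal 278.3), Bcat (998 bp, 132.4) and CG4733 (991 bp, 328.5), and the first outside at siz (1002 bp, 146.4), CG14207 (1007 bp, 290.2) and Gyg (1012 bp, 130.8). At the pairing limit, 46 members had divergent starts 1001 to 1250 bp apart (median signal 217.3), and 54 non-members had them 750 to 1000 bp apart (230.2).

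The promoters differed with the distance of the summit. The 1114 members were split by distance into 295 at 0 to 149 bp, 387 at 150 to 299 bp and 432 at 300 to 1000 bp, limits chosen after the distances had been seen. GAGAG on either strand in the 150 bp before the start was present at 38 of 295 starts (12.9%, exact 95% interval 9.28 to 17.2%) in the nearest class, 162 of 387 (41.9%, 36.9 to 47.0%) in the middle one and 200 of 418 (47.8%, 43.0 to 52.8%) in the farthest. Single starts without a member held it in 23.0% (2799 of 12158), and all 13216 single starts in 24.1%. The shares thus lay below that background for the nearest summits and above it for the others.

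The same order was found in each replicate. By the rule on replicate 1 alone the GAGAG shares were 16.6, 42.0 and 49.2% from the nearest to the farthest class, and on replicate 3 alone 11.5, 41.7 and 48.2%. Inner starts made up 23.1, 37.5 and 46.8% of the members of the 3 classes, so the outermost starts of genes were also read alone, and gave 11.9, 38.0 and 39.0%. Base composition moved with the classes too. Mean GC content at 51 to 100 bp before the start was 37.4, 47.5 and 48.9% from the nearest to the farthest class and 42.0% at single starts without a member, and its part in the GAGAG shares was not tested. For summits under 150 bp the window before the start also contains the summit itself, around which GAGAG was scarce.

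DRE-type words were most frequent in the nearest class, and CGATA differed little between the middle and farthest classes. CGATA on either strand, a word contained in the DRE, was present before 125 of 295 starts (42.4%) in the nearest class, 78 of 387 (20.2%) in the middle one and 82 of 418 (19.6%) in the farthest, against 25.5% of single starts without a member. The full DRE was at 6.44, 2.33 and 0.957%, against 3.48%. In replicate 1 the CGATA shares were 40.1, 20.3 and 20.6%, and in replicate 3 they were 40.3, 22.5 and 18.6%. Starts with a near summit therefore held CGATA more often than GAGAG, and starts with a far summit GAGAG more often than CGATA.

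The initiator word TCAGT, read on the gene's strand within 10 bp of the start, was also least frequent in the nearest class. It was present at 6.78, 25.1 and 23.0% of starts from the nearest to the farthest class, against 15.6% of single starts without a member. TATAAA at 15 to 45 bp before the start was rarer at members than elsewhere, at 2.03, 4.91 and 5.26%, against 9.27%. In replicates 1 and 3 the nearest class had TCAGT at 9.69 and 5.56% and TATAAA at 2.42 and 2.43% of starts. The nearest class thus had the smallest share of each of these words, and of GAGAG, in all 3 lists.

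**Figure D3:**
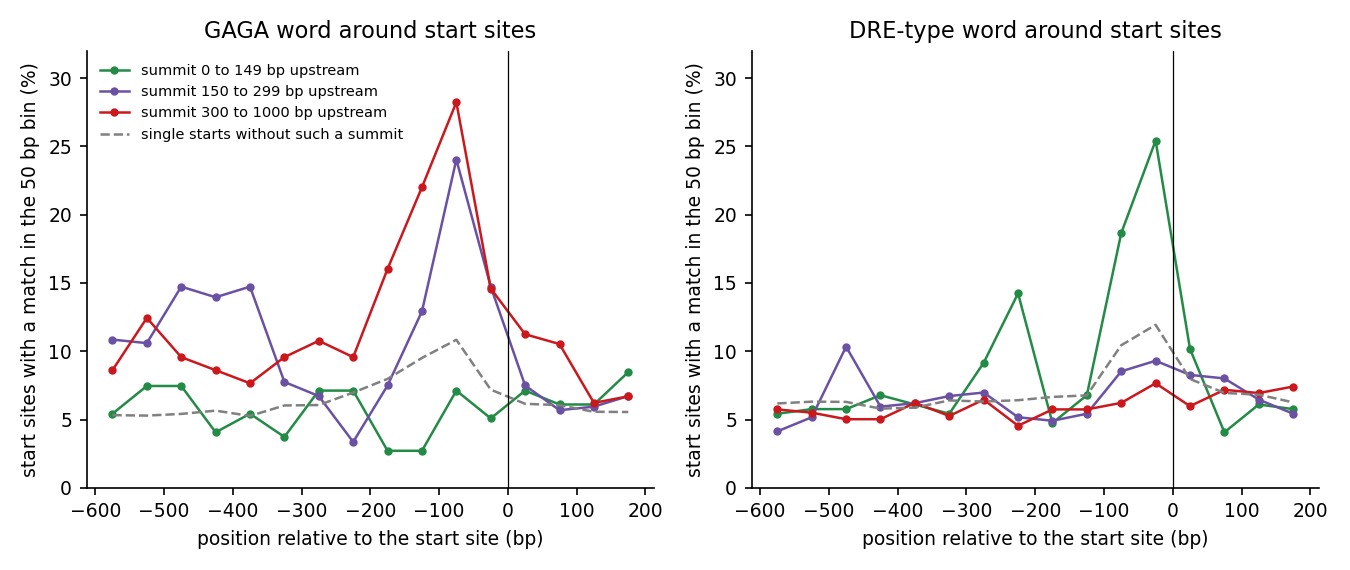
Share of start sites (%, vertical axes) with the GAGA word GAGAG (left) or the DRE-type word CGATA (right) in 50 bp bins around the start (bp, horizontal axes; upstream is negative), for the 3 classes of summit distance and, dashed, for the 12158 single starts without such a summit. At 51 to 100 bp before the start the GAGA word was at 7.12, 24.0 and 28.2% from the nearest to the farthest class and 10.8% without a summit, while within 50 bp of the start the DRE-type word was at 25.4, 9.30 and 7.66%, and 11.9% without a summit.

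Genes of known function illustrate the classes. In the nearest class eEF1gamma, a translation elongation factor gene, had a DRE and no GAGAG, and a signal of 634.7 (replicate 1 331.5, replicate 3 295.3) at 35 bp. Nsun5, an rRNA methyltransferase gene, had a DRE and a signal of 403.4 at 59 bp. In the middle class msi, the gene of the neural RNA-binding protein Musashi, had GAGAG at 5 positions and a signal of 1226 at 217 bp, and Fhos, a formin gene, had it at 7 and a signal of 1148 at 288 bp. In the farthest class Lk6 had it at 3 positions and larp at 4, and at CHES-1-like, a forkhead gene, it occurred at 10 (signal 676.9, 361 bp). The classes overlapped in content: nebu, Oatp30B and sbb, with summits at 138, 115 and 128 bp, held GAGAG, and CG13896, Gga and IntS8, with summits at 382, 774 and 789 bp, held a DRE.

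GC content was lower at the summits than upstream of single starts or in the flanks. Where a summit lay under 150 bp from the start, the window around it overlaps the 150 bp before the start. Mean GC content within 100 bp of the 1114 summits was 33.7% ± 6.88 (SD over summits), against 38.4% ± 9.40 in windows of the same width 239 bp upstream of all 13216 single starts and 42.4% ± 9.71 in windows centred 1000 bp to each side of the summits. It was 34.1% in replicate 1 and 33.5% in replicate 3, and 32.3, 36.5 and 34.3% at head-to-head, downstream and distant summits. In 50 bp bins GC content was lowest just before the summit (30.8%). It reached 46.0% from 250 to 299 bp, on the side of the gene, and 40.9% from -500 to -451 bp, on the other side.

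Over all members together, GAGAG was scarce at the summit and more frequent on both sides of it. It was present in 2.69% of the 50 bp bins just before the summit and 5.03% of those just after it. From 100 bp outwards to 500 bp its share ranged from 7.09 to 12.7% on the side away from the gene and from 9.34 to 13.1% on the side of the gene. In the nearest class these ranges were only 3.39 to 8.14% and 5.42 to 9.83%. On the side of the gene the share reached 20.7% in the middle class and 19.4% in the farthest. Within 100 bp of the summit 20.9% of members had it, against 24.0% of the windows before all single starts. The forkhead core TAAACA was in 8.26% of members in the bin before the summit and 8.17% in the bin after it. In the other bins out to 500 bp its share ranged from 4.40 to 7.45% on the side away from the gene and from 3.14 to 6.64% on the side of the gene, so the central bins stood little above the highest of these. GC content was lowest in the bin before the summit, and its part in both profiles was not tested.

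**Figure D4:**
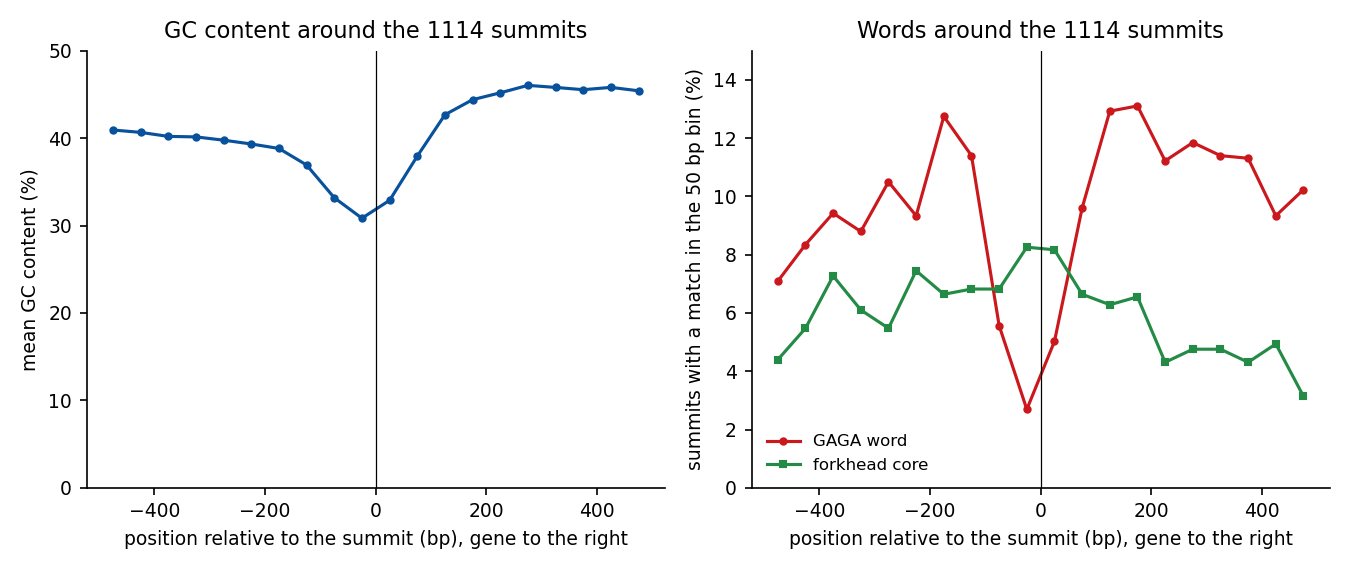
Mean GC content (%, left) and share of the 1114 summits with the GAGA word or the forkhead core (%, right) in 50 bp bins around the summit (bp, horizontal axes; the gene lies to the right). GC content was lowest, at 30.8%, in the bin before the summit, where 2.69% of the summits had the GAGA word and 8.26% the forkhead core.

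The forkhead core was present within 100 bp of 306 summits (27.5%, with 24.9 to 30.2% as the exact interval). It was in 23.6% of the windows before all single starts and 20.1% of the flanking windows. Replicates 1 and 3 gave 27.6 and 27.2%. The share was no higher than in the other classes of summits, which had 29.5% (head-to-head), 31.9% (downstream) and 30.5% (over 1000 bp away). The longer word TGTTTAC, which contains the core in reverse, was at 6.46% of members, 5.52% of single-start windows and 4.71% of flanks. The AT-only words TAATTA (18.9, 15.9 and 12.7%) and AAAAAAA (24.5, 20.3 and 16.1%) had the same order over these windows. GC content was 33.7, 38.4 and 42.4% in them, and its part in the forkhead shares was not tested. The strongest members with the core were Lk6 (2011), CG1635 (1792) and Gapdh2 (1635), and the 3 members stronger than Lk6 (CG14100, HmgZ and ph-p) had none within 100 bp.

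The DRE and GGTCACAC were uncommon at the summit, while CGATA and TATAAA were not. CGATA was within 100 bp of 325 summits (29.2%), against 23.8% of single-start windows and 22.6% of flanks. It was at 40.1% of head-to-head, 25.2% of downstream and 20.3% of distant summits. Among the members it was at 44.7, 20.7 and 26.2% from the nearest to the farthest class. The DRE was within 100 bp of 26 summits (2.33%), against 1.28% of single-start windows, 0.539% of flanks, 8.50% of head-to-head, 3.12% of downstream and 0.363% of distant summits. Alg3 (1270), CG11151 (754.9) and CG1827 (749.6) were the strongest members with it. GGTCACAC, bound by M1BP, was at 23 members (2.06%), among them Xbp1, a factor of the unfolded protein response (signal 461.0), and RpL30, against 0.575% of single-start windows and 3.14% of head-to-head summits. It was at 1.46% of the members of replicate 1 and 1.85% of those of replicate 3. TATAAA anywhere within 100 bp was at 41.1%, against 30.1% of single-start windows. It was at 48.4% of head-to-head, 30.1% of downstream and 37.7% of distant summits. GC content differed between these windows, and none of these differences was tested.

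Members lay outside all genes in 576 cases (51.7%), inside the gene whose start they preceded in 416 (37.3%) and inside another gene in 122 (11.0%). Of the 416, 372 were in introns and 39 in 5′ untranslated regions of longer transcripts. Of 13216 single starts 1058 (8.01%) had a member, and the share differed with the arrangement of the start. Inner starts of a gene had one in 8.99% (391 of 4348), starts whose upstream neighbour was divergent in 8.51% (177 of 2080), starts behind a tandem neighbour in 8.07% (410 of 5080) and starts inside another gene in 4.71% (80 of 1700). Behind a tandem neighbour the share was 4.50% for spacers of up to 250 bp and 10.4% for 251 to 500 bp. It was 8.90% for 501 to 1000 bp, 10.5% for 1001 to 5000 bp and 6.93% above 5000 bp. In replicates 1 and 3 the shares inside other genes were 4.71 and 5.12%, and those behind the shortest spacers 4.13 and 4.65%.

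The architecture of the locus also differed between the distance classes. Genes with a single annotated start made up 53.2, 38.2 and 30.1% of members from the nearest to the farthest class, and starts with a tandem neighbour made up 59.7, 37.0 and 25.2%. The median spacer to that neighbour was 369, 983 and 2165 bp. Which of these features goes with the promoter words was not tested. Median signal was 206.0, 235.9 and 203.0 in the 3 classes.

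The 1114 members belonged to 988 genes, or 10.2% of the 9654 protein-coding genes with a single start and 7.08% of all 13945. On replicate 1 alone it was 965 and on replicate 3 alone 995 of the 9654 genes. Genes with more start sites had a member more often: 6.21% with 1 start, 14.2% with 2, 23.3% with 3, 31.7% with 4 and 47.3% with 5 or more. Counted per start site the shares were 6.30, 8.49, 10.5, 9.98 and 12.4%, a smaller range. There were 880 genes with 1 member, 95 with 2, 9 with 3, 3 with 4 and 1 with 5.

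The gene with 5 members was Rtnl1, which encodes a reticulon that shapes the endoplasmic reticulum (FBgn0053113, 2L, 7 start sites). Their signals were 929.8, 656.2, 274.5, 224.4 and 151.3, at 286, 206, 158, 337 and 361 bp upstream of the nearest start. Those with 4 were Ptpmeg2, a tyrosine phosphatase gene, larp, and Svil, a supervillin gene with 16 start sites. Genes with 3 were NFAT, Bcat, CG5004, dnc, stv, Moe, CG43736, Cipc and Hnf4. They include the cAMP phosphodiesterase gene dnc (768.1, 712.9 and 221.4), the membrane-cytoskeleton linker gene Moe (317.6, 229.9 and 219.6) and the nuclear receptor gene Hnf4 (308.4, 151.0 and 125.0). Summits of 1 gene share that gene's locus and are not independent.

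Cytoplasmic ribosomal protein genes had members more often than the background. Of the 38 with a single start, 19 (50%, exact 95% interval 33.4 to 66.6%) had one, against 10.2% of all genes with a single start. Their summits lay at a median of 26 bp, 17 of 19 under 150 bp, and GAGAG was before none of the 19 starts, while CGATA was before 11 and the DRE before 3. Signals were moderate, from 123.3 to 455.6 with a median of 225.4. RpL23A had the highest (455.6 pooled, 202.9 in replicate 1, 254.1 in replicate 3, 97 bp), followed by RpL24 (348.0 pooled, 192.5 in replicate 1, 148.1 in replicate 3, 14 bp) and RpS10b (332.2 pooled, 185.7 in replicate 1, 143.6 in replicate 3, 21 bp). Summits between head-to-head starts, which are not members, lay at 38 of the 85 genes of the whole list.

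The count for ribosomal protein genes differed between the replicates. All 19 members overlapped a peak in both relaxed lists, but in replicate 1 the nearest summit was downstream of the start for 6 of them, and in replicate 3 for none. A further 2 lay upstream in replicate 1 but ranked past its best peaks, while in replicate 3 all 19 lay upstream among the best peaks. These positions are relative to the start nearest the pooled summit. The rule itself finds the nearest start and any divergent pair anew for each replicate's summits, so its counts can differ. The rule applied to the best peaks of replicate 1 gave 11 ribosomal protein genes (28.9%), and to those of replicate 3 it gave 17 (44.7%). At RpL30 the summit lay 15 bp upstream in the pooled data, 23 bp downstream in replicate 1 and 49 bp upstream in replicate 3. Starts of snoRNA genes lay within 1000 bp of 6 of the 19.

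Most other housekeeping lists were near or below the background of 10.2%. Summits between head-to-head starts are not members and are not counted here. Such summits lay at 12 mitochondrial ribosomal protein, 7 synthetase, 5 complex I and 9 vesicle coat genes, and at 0 mitochondrial import genes. Mitochondrial ribosomal protein genes had 0 of 15, respiratory complex I 0 of 17, aminoacyl-tRNA synthetases 0 of 11, ATP synthase 0 of 5, spliceosome 0 of 5, replication 0 of 10 and the chaperonin CCT 0 of 1. On single replicate lists the mitochondrial ribosomal proteins had 1 in replicate 1 and the synthetases 1 in replicate 3, while complexes III and IV and mitochondrial import had 0 in replicate 1 and vesicle coats had 2 there. Proteasome genes had 1 of 26, Rpn11, a deubiquitinase of the 19S particle (signal 185.7, 215 bp). Respiratory complexes III and IV had 1 of 18 (Cyt-c1L), mitochondrial import 1 of 10 (Tim17a2) and vesicle coats 1 of 20 (deltaCOP). Nucleoporins, a list of only 4 such genes, had 1 (Nup44A). Translation initiation factors had 3 of 26: eIF6 (1516), eIF2D (157.6) and eIF2A (115.0). Most of these lists hold few genes, and the exact 95% interval for 0 of 17 runs to 19.5%.

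The lists of transcription and regulation were small, and their exact intervals all include the 10.2% of all genes with a single start. Mediator had 3 of 10 (MED4, Cdk8 and MED6, signals 294.6, 135.4 and 134.1), general factors 1 of 10 (Taf4) and RNA polymerase subunits 1 of 12 (Polr2F). On replicate 3 alone Mediator had 2, the general factors 0 and the Polycomb and trithorax list 3. Replicate 1 alone gave 4, 1 and 2 in the same order. Polycomb and trithorax group genes had 2 of 16, the neighbouring paralogues ph-p (2057) and ph-d (696.3 pooled, 373.5 in replicate 1, 317.1 in replicate 3, 809 bp). Insulator protein genes had 1 of 8, BEAF-32 (225.2, 66 bp), whose product binds CGATA. Forkhead genes had 4 of 17: CHES-1-like with a pair of members (676.9 and 543.6), foxo, a target of insulin signalling (336.8), FoxK (237.9) and fkh (234.2). Cyclins and their kinases had 3 of 15, CycE (433.9), Cdk4 (154.3) and Cdk8, with 4 by replicate 1 alone and 3 by replicate 3 alone. None of 24 Hox and segmentation genes had a member, in the reproducible list or in either replicate list (interval up to 14.2%).

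The vesicle, stress and muscle lists had intervals that all include the 10.2% of all genes with a single start. Rab GTPases had 4 of 20, led by Rab5 of early endosomes (492.3 pooled, 289.0 in replicate 1, 193.1 in replicate 3, 270 bp), with Rab26 (149.5), Rab11 (137.0) and Rab1 (118.6). The list had 2 by replicate 1 alone and 3 by replicate 3 alone. The vacuolar proton pump had 3 of 20 (Vha16-1, Vha68-2 and VhaSFD, signals 243.5, 190.2 and 132.1). Heat shock genes had 3 of 19: Hsp27 (721.8, 158 bp), Hsp26 (262.5, 123 bp, GAGAG at 6 positions) and Hsp22 (118.7, 495 bp). Muscle sarcomere genes had 4 of 24, with the titin-like gene sls (555.6) ahead of Act87E (203.4), Tm1 (166.0) and TpnC47D (165.0).

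Receptor, cuticle and cytochrome P450 genes had members less often than the 10.2% of all genes with a single start, with exact intervals below it. That background rises with the number of start sites per gene, and was 6.21% for genes with 1 start site. The cuticle and P450 intervals include 6.21%, and the receptor interval lies below it. The number of start sites of the genes in these lists was not taken into account. Odorant, gustatory and ionotropic receptor genes had 1 of 155 (0.645%, interval 0.0163 to 3.54%), the odorant co-receptor Orco (144.6, 738 bp). Cuticle protein genes had 2 of 110 (1.82%, interval 0.221 to 6.41%), Edg91 (183.7) and Cpr67Fb (176.2), and cytochrome P450 genes 2 of 73 (2.74%, interval 0.334 to 9.55%), Cyp317a1 (167.4) and Cyp6v1 (131.0). Glutathione S-transferases and UDP-glycosyltransferases had 3 of 59 (5.08%, an interval of 1.06 to 14.1% that includes the background), GstZ2, Ugt36D1 and GstD1 (264.4, 197.4 and 160.7). The serine protease list had 1 of 23, SP2353, which entered by its symbol. The counts for receptors, cuticle proteins and P450s were the same in both replicate lists. Synapse and ion channel genes had 0 of 20, and 1 in replicate 1.

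**Figure D5:**
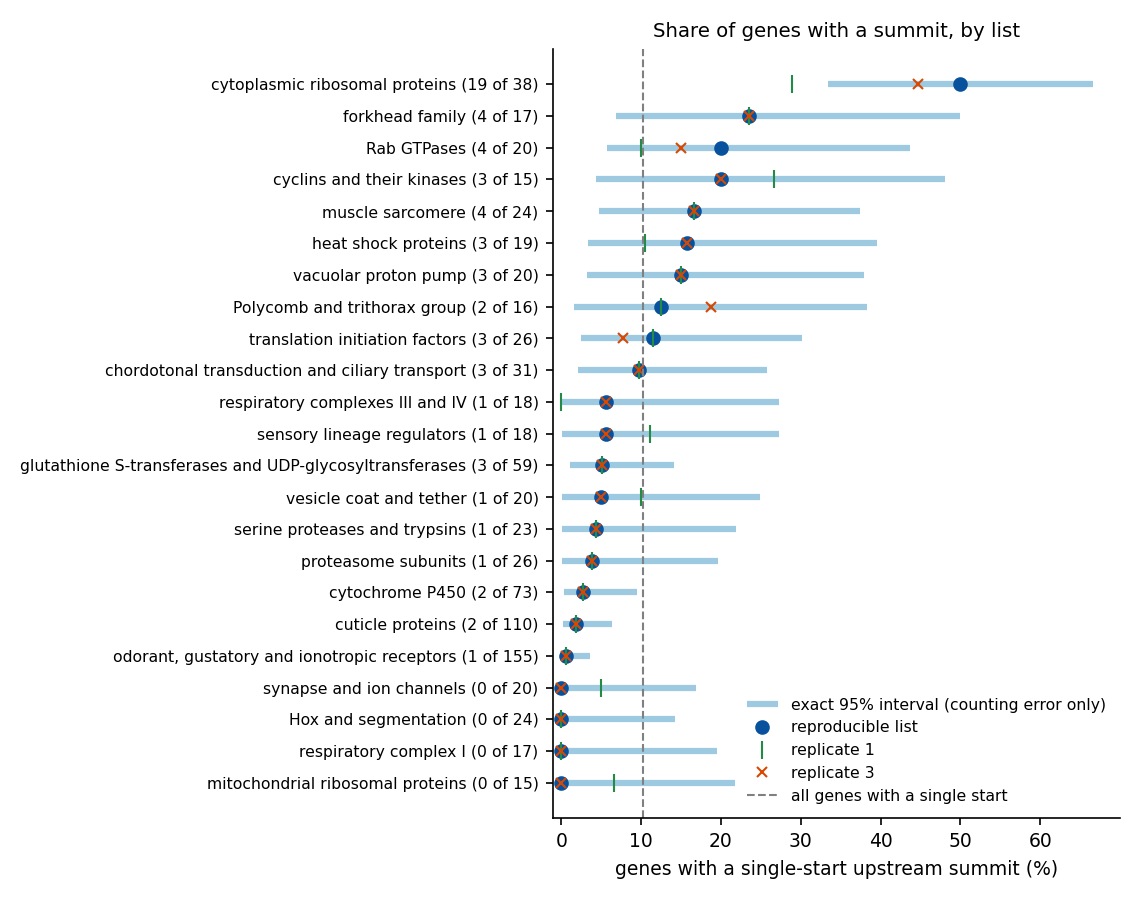
Share of genes with an upstream summit (%, horizontal axis) for each list with at least 15 single-start genes, with the count in brackets, as a dot with its exact 95% interval, and as a bar and a cross for replicates 1 and 3; the dashed line is the 10.2% of all genes with a single start. Ribosomal protein genes stand at 50%, and receptor and cuticle genes at 0.645 and 1.82%.

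Lists of genes tied to fd3F by their known roles were small. Their exact intervals include the 10.2% of all genes with a single start and are too wide to place them above or below it. The list of chordotonal transduction and ciliary transport had 3 of 31 (9.68%, exact 95% interval 2.04 to 25.8%, against 10.2%), and the count was 3 in both replicate lists. They were nan, which encodes a TRPV channel subunit of chordotonal cilia, Fam92, of the ciliary base (148.4, 106 bp), and nop5 (245.3), a nucleolar protein gene that entered the list by mistake. Without nop5 the share of this list would be lower. nan had a signal of 148.3 pooled, 70.2 in replicate 1 and 77.4 in replicate 3, at 531 bp and rank 2861 of 3917. This summit lay between divergent protein-coding starts 1222 bp apart, past the pairing limit of 1000 bp, so it could also belong to the other gene. The partner channel gene of nan, iav, had its nearest summit 9043 bp away, and fd3F itself 27865 bp away. Sensory lineage regulators had 1 of 18 (5.56%, interval 0.141 to 27.3%), and replicate 1 alone gave 2 of 18. The 1 was the neuronal RNA-binding protein gene elav (965.7 pooled, 524.6 in replicate 1, 434.5 in replicate 3, 247 bp), with GAGAG at 6 positions before its start.

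Non-coding genes started within 1000 bp of 132 members (11.8%, with 11.6% in replicate 1 and 11.2% in replicate 3). The share was not computed for all single starts or for the other classes of summits. Whether the values for members are high or low is therefore unknown. Of these, 117 were near ncRNA genes, 12 near snoRNA, 7 near tRNA and 4 near pseudogenes, and a member could have several. At 62 members (5.57%) a non-coding start was divergent to the coding one within 1000 bp, so those starts are single only with regard to protein-coding genes. Examples were gce, a juvenile hormone receptor gene (946.6, antisense asRNA:CR44429), and PlexA, a semaphorin receptor gene (613.5). CG1142 had its summit (1039) near the small RNA gene scaRNA:MeU5-C46, and CG8036 had its summit (581.4) near a pair of tyrosine tRNA genes.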

How the data were processed

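The data were peak lists of ChIP-seq against fd3F-GFP in whole embryos, 2 biological replicates of 1 group. Per the deposited file descriptions, the authors called relaxed lists of 30000 peaks for replicate 1, replicate 3 and both together, on build dm6 against a control, and selected 3917 reproducible peaks by irreproducible discovery rate (IDR). These proved to be the 3917 pooled peaks of highest signal. What aligner, peak caller and IDR limit were used is not given in the sources used here. Each peak's deposited signal is the authors' value over the control on the scale of its own list, and the deposited −log10 q-value was read and not tested. No read counts are in the lists, so depth is unknown.

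Summit positions came from each interval's start and summit offset. Start sites came from Ensembl release 115 (FlyBase 6.54) on Release 6: 19607 start sites of 13945 protein-coding genes on 6 chromosome arms, of which 13908 genes had the same symbol and coordinates in RefSeq. No peak ran past a chromosome end. Replicate values are those of the overlapping peak with the nearest summit, and each replicate's own values use its 3917 best peaks. A single start is one with no divergent protein-coding start within 1000 bp. Words were matched exactly, on both strands unless a strand is named, within 100 bp of summits or 150 bp before starts. Overlaps between words are that the DRE (TATCGATA) contains CGATA, and TGTTTAC contains the reverse of TAAACA. All 34 gene lists (by symbol) but only some of the 17 words are described. Words left out also differed between the windows, such as GCCAT, at 25.7% of members, 30.0% of single-start windows and 32.2% of flanks. Intervals are exact (Clopper-Pearson) and cover counting error only. Members share libraries and loci and are not replicates, and no test was made between classes.

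Members, words and lists were chosen with earlier results of these data known. Genes named are those of the 20 strongest members, all genes with a member in a list (the 3 strongest where over 4), genes with 3 or more members, those at the limits, the strongest with a described feature, and fd3F, nan and iav. Genes named outside that rule, such as msi, Fhos and Nsun5, carry the printed sequences. Classification and word matching were tested on simulated data. Alternatives were single replicates, the stronger part of the list, other windows, pairing distances, start-site sets and overlap rules. Tables were computed in Python 3.11.15 with pandas 2.3.3 and numpy 2.4.6, intervals with scipy 1.17.1, and figures with matplotlib 3.10.9.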

Additional observations from a re-analysis of the deposited data

How the results depend on the processing

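No paired analysis was possible because there was 1 group. The numbers of members and of ribosomal protein genes count as moved past a change of 1.5 times, the share in both replicates when outside its exact interval, and other values when they shifted by more than 1 SD between the replicate lists, which is small for some (2.83 bp for the median distance), so many small shifts are listed. From single replicates the values ran from 242 to 246 bp for the median distance, 51.2 to 51.9% for the share within 250 bp, 2.12 to 2.28% for the DRE, 6.92 to 7.14% for protein-coding genes with a member and 11.2 to 11.6% for a non-coding start nearby. The 1958 strongest peaks gave 613 members (31.3% of it), a median of 231 bp, 53.7% within 250 bp, a GC content of 33.0%, 28.1% with the forkhead core and 4.07% of genes. Windows of 500 and 2000 bp gave 23.3 and 33.0% of summits, medians of 202 and 279 bp, 2.85 and 2.09% with a DRE, and 6.09 and 7.82% of genes. Pairing distances of 500 and 2000 bp gave 32.5 and 24.8% of summits, medians of 222 and 247 bp, and 8.17 and 6.13% of genes, with 2.67% holding a DRE at 500 bp and 27.9% the forkhead core at 2000 bp. With 1 start site per gene the values were 19.9% of summits (778 members), a median of 207 bp, 27.0% with the forkhead core, 2.83% with a DRE and 5.34% of genes. Start sites of all genes gave 2.15% with a DRE and 6.56% of genes. Motif windows of 50 and 250 bp gave a GC content of 31.9 and 38.2%, the forkhead core in 16.1 and 52.3%, and a DRE in 1.08 and 4.49%. Requiring summits at most 50 bp apart left 65.4% of members among the best peaks of both replicates.

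Alternatives for the GAGAG shares and the ribosomal protein count were chosen after seeing the data. The share for summits under 150 bp ran from 11.5 to 16.6% over single replicates and was 20.7% in 250 bp before the start. The share for summits at 300 bp or more ran from 48.2 to 49.2% over single replicates, and was 55.7% among the 1958 strongest peaks, 37.3% with 1 start site per gene, and 37.1 and 56.7% in 100 and 250 bp before the start. It exceeded the share for near summits under every alternative listed in this paragraph. The ribosomal protein count ran from 11 (replicate 1) to 17 (replicate 3), a change of over 1.5 times without replicate 3. Depth is unknown, so what it limits could not be measured.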
